A study of Mus musculus with 12 samples.

Results

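Transcripts of the D-type cyclins and of their kinase partners CDK4 and CDK6 were followed through 12 arrays of mouse haematopoietic stem cells (HSCs), the rare bone marrow cells that renew every blood lineage. The genes are Ccnd1, Ccnd2, Ccnd3, Cdk4 and Cdk6, which are 5 of the 18193 genes with at least 1 probe set annotated to that gene alone. They had 19 such probe sets between them. For each gene the probe set of highest mean log2 signal over the 12 arrays gave the main value, and its other probe sets are reported beside it. All 5 genes were among the 12083 tested, for which a signal over the array's median was required on 3 or more arrays.

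There were 4 groups of 3 biological replicates. Wild-type mice gave wild-type GFP- cells, labelled as cycling, and wild-type GFPhigh cells, labelled as quiescent. NrasG12D/+ mice carry an oncogenic allele of Nras, a small GTPase of growth factor signalling, beside a normal allele, and gave Nras GFP- and Nras GFPhigh cells with the same labels. Mice of all 4 groups drank doxycycline for 6 weeks and were sampled 12 weeks after it was withdrawn. A GFP label made under doxycycline is diluted at each division, so cells that have divided little stay bright. The promoters that drive the label and the Nras allele, the ages, and the number of mice behind a replicate are not given in the sources used here.

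Cyclins D1, D2 and D3 are made in response to growth signals and bind CDK4 or CDK6. The active kinases phosphorylate the retinoblastoma protein and its relatives, which releases E2F factors to switch on the genes of DNA replication. INK4 proteins block CDK4 and CDK6 directly, whereas CIP/KIP proteins also restrain CDK2. In HSCs, CDK6 is known for its part in the exit from quiescence, and cyclin D1 is a classical target of RAS and ERK signalling.

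Signals are MAS5 signal units on a linear scale, set by the authors so that the trimmed mean of every array was 500. The median signal of an array ran from 44 to 129.6. In 4 arrays (wild-type GFPhigh replicate 2, Nras GFP- replicate 1, Nras GFPhigh replicates 1 and 2) the array weight estimated by limma was 0.31 to 0.52. The other 8 had weights of 0.90 to 2.46, and the first 4 are the low-weight arrays in what follows. Without those 4, Nras GFPhigh holds replicate 3 alone. The signal ratio of the 3' to the 5' control probe set of Gapdh was 7.28, 2.83 and 5.70 in Nras GFPhigh replicates 1, 2 and 3. In the other 9 arrays it was 2.57 to 4.48, and its part in any difference was not tested. Xist, made from the inactive X chromosome, read 91.8 to 205.1 in the third replicates and 5773.4 to 11480.7 in replicates 1 and 2. Of 12 HSC markers, 10 had a probe set of their own, and all 10 were above the array median on all 12 arrays. The summed signal of 10 granulocyte markers, none of which was at 0 on any array, was 6017.3, 42953.5 and 57326.8 in the Nras GFPhigh arrays and 957.4 to 13229.2 in the other 9. Endothelial and stromal markers (8 genes) summed to 2031.1 to 6077.8 in Nras GFPhigh and 440.8 to 4078.1 elsewhere. The Nras transcript read 2881.2 to 3209.8 in wild-type and 3530.4 to 3845.5 in Nras GFP- cells, without overlap (10.8% of all genes). In GFPhigh cells it read 1250.2 to 3373.7 and 2409.7 to 4274.8, with overlap, and the averaged genotype difference was 0.39 ± 0.26 (adjusted p of 0.729).

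Cdk6 was the member with the clearest difference. Its signal was lower in GFPhigh than in GFP- cells of both genotypes, with a difference of -1.57 ± 0.38 (SE) on the log2 scale when averaged over the genotypes, and the 6 GFPhigh arrays did not overlap the 6 GFP- arrays on any of its 3 probe sets. With 1 probe set per gene, 0.339% of all genes had such non-overlap with GFPhigh lower. Ccnd1 was higher in Nras than in wild-type GFP- cells by 1.16 ± 0.34, without overlap on its main probe set and with overlap on 1417419_at. Non-overlap with Nras higher was found in that comparison at 4.07% of all genes. Ccnd2 was higher by 0.48 ± 0.19 in Nras than in wild-type GFPhigh cells. None of these differences passed an adjusted p under 0.05 in limma over all 12083 genes, with adjusted p of 0.301, 0.983 and 0.566. In these sorted bulk samples, fewer cells with a transcript and less of it per cell cannot be told apart.

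Few genes of any kind were called. At an adjusted p under 0.05, limma called 0% of the genes in each of the 4 comparisons of 2 groups, in the interaction of genotype and population, and in GFPhigh against GFP- averaged over genotypes. In Nras against wild-type averaged over populations it called 1 gene, Gem, which is 0.00828% of those tested. At an unadjusted p under 0.05, GFPhigh against GFP- took 2.2% of all genes in wild-type cells, among them 1 member (Cdk6), and 12.2% in Nras cells, among them 2 members (Ccnd2 and Cdk6). Nras against wild-type took 4.39% in GFP- cells, with Ccnd1 among them, and 8.29% in GFPhigh cells, with Ccnd2 among them. The interaction took 4.68% and no member. The averaged comparisons took 8.87% for GFPhigh against GFP- (Ccnd2 and Cdk6) and 7.78% for Nras against wild-type (Ccnd1 and Ccnd2).

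**Figure D1:**
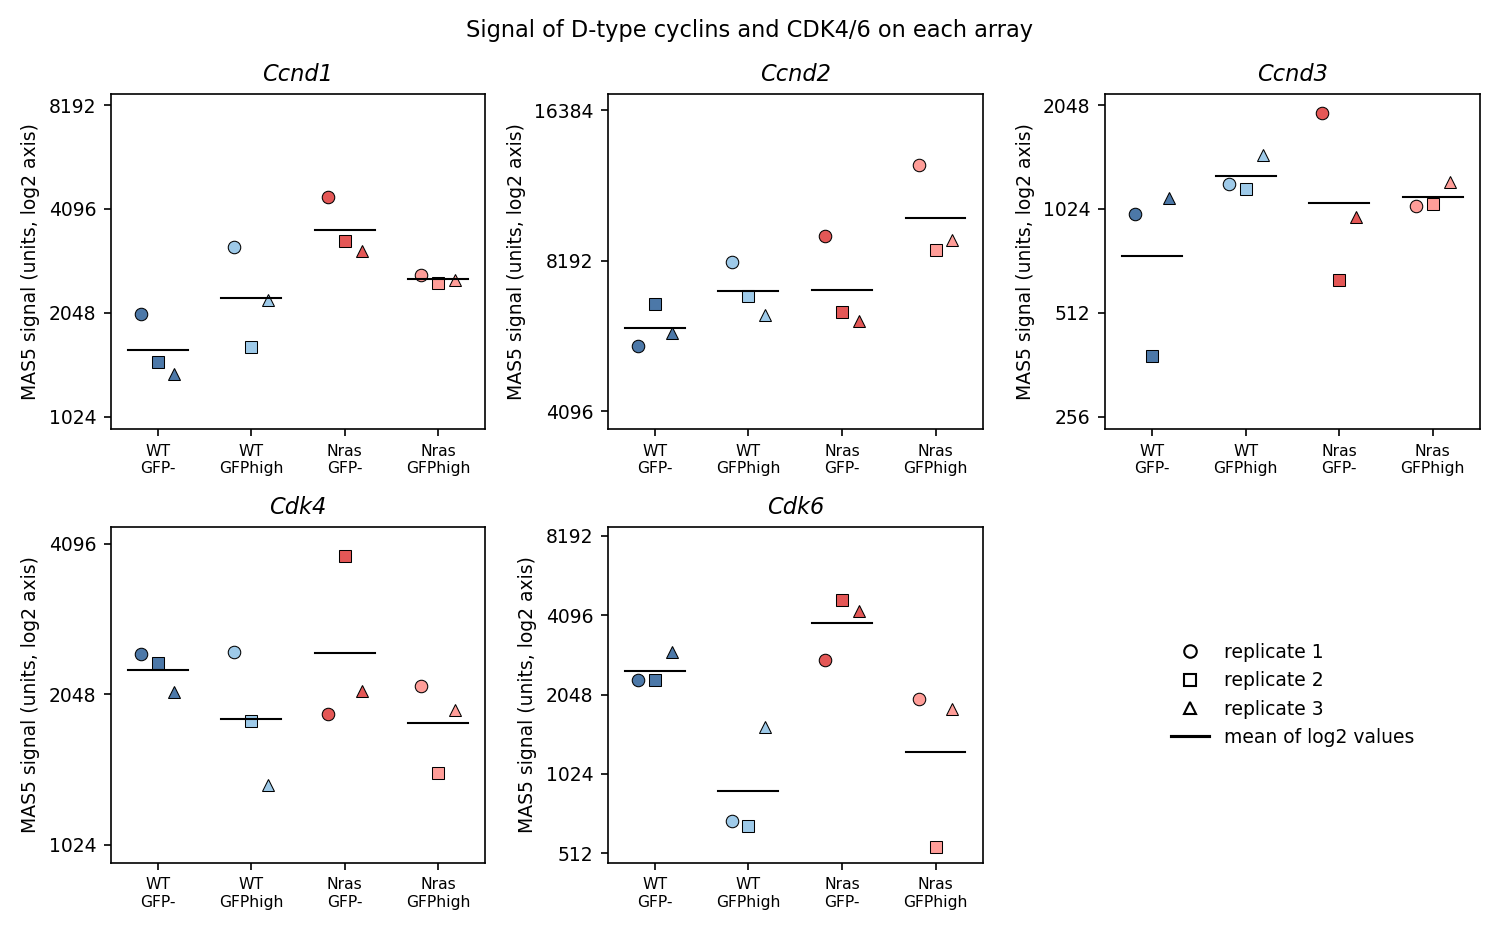
MAS5 signal of the main probe set of each gene on each of the 12 arrays, on log2 axes that differ between panels and do not start at 0, with symbols for replicates 1 to 3 and a bar for the mean of the log2 values. Cdk6 lies between 540.8 and 1969.1 in the 6 GFPhigh arrays and between 2316.8 and 4694.2 in the 6 GFP- arrays, while Ccnd1 is at its highest in Nras GFP- cells.

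Ccnd1 encodes cyclin D1, the member most closely tied to RAS signalling. Its main probe set, 1448698_at, read 2038.3, 1477.7 and 1358.1 in wild-type GFP- cells (replicates 1, 2 and 3). In Nras GFP- cells it read 4440.5, 3310.6 and 3084.5. The lowest Nras GFP- array was above the highest wild-type GFP- array, and same-numbered replicates differed by 1.12, 1.16 and 1.18 (log2). The difference was 1.16 ± 0.34 (SE, n = 3 and 3), or 2.23-fold, with a 95% interval of 0.42 to 1.90, an unadjusted p of 0.00498 and an adjusted p of 0.983 in limma. Groups of this comparison did not overlap at 10.8% of all genes, and at 4.07% with Nras higher.

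In wild-type GFPhigh cells Ccnd1 read 3172.9, 1632.7 and 2229.7. In Nras GFPhigh cells it read 2643.1, 2498.8 and 2553.9, a narrow spread that lay inside that of the wild-type group. The genotypes differed there by 0.18 ± 0.34, with an interval of -0.56 to 0.92. Along the label, the Ccnd1 signal was 0.50 ± 0.34 higher in GFPhigh than in GFP- cells of wild-type mice (0.25 without GFPhigh replicate 1), with overlap, and differed by -0.48 ± 0.34 in Nras mice, without overlap. Such non-overlap in Nras mice was found at 12.9% of all genes. The interaction, the genotype difference in GFPhigh minus that in GFP- cells, was -0.97 ± 0.48 with an unadjusted p of 0.0654 and an adjusted p of 0.956 in limma. Averaged over populations, Nras cells exceeded wild-type cells by 0.67 ± 0.24 (unadjusted p of 0.0161, adjusted p of 0.594), and averaged over genotypes the label made a difference of 0.012 ± 0.24.

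The 3 probe sets of Ccnd1 did not give one answer. On 1417420_at, Nras GFP- cells read 2134.3, 1542.8 and 1348.2 against 946, 598.6 and 1029 in wild-type GFP- cells, again without overlap, with a difference of 0.98 ± 0.54. On the dimmer 1417419_at they read 564.8, 382.1 and 222.4 against 254.8, 210.9 and 330.6, which overlap, with a difference of 0.48 ± 0.76. The label in Nras cells divided the probe sets in sign, at -0.48 ± 0.34 on 1448698_at, 0.29 ± 0.54 on 1417420_at and -1.28 ± 0.76 on 1417419_at. The middle value includes 1 array at 4779.6, Nras GFPhigh replicate 1, a low-weight array with a granulocyte sum of 42953.5, and the part of either in that value was not tested. The log2 mean over the 3 probe sets left 0.87 ± 0.40 between the genotypes in GFP- cells.

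The sign of the Ccnd1 difference in GFP- cells was the same in all 27 alternatives run, from 0.87 to 1.76. Some of these could not change the value, among them other filters, the replicate block and leaving out a GFPhigh array. The all-gene median of this comparison was -0.17 with the deposited scaling and 0.43 after each array was centred on its median, and Ccnd1 moved with it from 1.16 to 1.76. Of the genes at an unadjusted p under 0.05, 22.1% were higher in Nras with the deposited scaling, 60.9% after median centring and 31.3% after quantile normalization. Without the low-weight arrays the Ccnd1 difference was 0.999 ± 0.30.

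Ccnd2 encodes cyclin D2. Its main probe set, 1416123_at, read 5528.7, 6716.1 and 5878.3 in wild-type GFP- cells and 8145.3, 6975.1 and 6388.7 in wild-type GFPhigh cells. In Nras GFP- cells it read 9188.7, 6467.5 and 6206.5, and in Nras GFPhigh cells 12705.7, 8616.8 and 9030.6. The 3 Nras GFPhigh arrays were above the 3 wild-type GFPhigh arrays, while the other comparisons of 2 groups that share a genotype or a population overlapped. Nras against wild-type in GFPhigh cells differed by 0.48 ± 0.19 (interval of 0.061 to 0.90, unadjusted p of 0.0280, adjusted p of 0.566). Non-overlap of these groups was found at 12.5% of all genes.

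GFPhigh cells exceeded GFP- cells in Ccnd2 by 0.36 ± 0.14 averaged over genotypes (unadjusted p of 0.0217, adjusted p of 0.525), by 0.24 ± 0.19 in wild-type and by 0.47 ± 0.19 in Nras mice. The value in Nras mice became -0.014 after median centring and 0.30 without Nras GFPhigh replicate 1. Same-numbered pairs were higher in GFPhigh in 6 of 6 cases. Of the 7 Ccnd2 probe sets, 1416123_at, 1416124_at and 1448229_s_at gave 0.35 to 0.38 for this average with unadjusted p of 0.0142 to 0.0298, and 1455956_x_at gave 0.40 ± 0.29. The remaining 3, 1434745_at, 1430127_a_at and 1416122_at, gave -0.0034, -0.043 and -0.036. Between the genotypes in GFPhigh cells, the 7 ran from -0.35 ± 0.70 (1416122_at) to 0.48 ± 0.19 (1416123_at), and 2 did not overlap. Their log2 mean gave 0.14 ± 0.31, quantile normalization gave 0.088 ± 0.15, and leaving out Nras GFPhigh replicate 1 gave 0.31.

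Averaged over populations, Ccnd2 was 0.37 ± 0.14 higher in Nras cells (adjusted p of 0.597), and quantile normalization lowered this to 0.11 and the label difference to 0.18. In Nras GFPhigh replicates 1, 2 and 3, Ccnd2 signals of 12705.7, 8616.8 and 9030.6 came with granulocyte marker sums of 42953.5, 57326.8 and 6017.3. The part of the granulocyte transcripts in the Ccnd2 difference was not tested. The interaction for Ccnd2 was 0.23 ± 0.28, with an interval of -0.37 to 0.82, and its sign turned under median centring, quantile normalization and the mean over probe sets.

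Ccnd3 encodes cyclin D3, which is needed in several lymphoid and erythroid progenitors. Its main probe set, 1415907_at, read 988.2, 383.7 and 1105.2 in wild-type GFP- cells and 1210.6, 1166.8 and 1465.1 in wild-type GFPhigh cells. These groups did not overlap, and 11.1% of all genes shared that in wild-type cells. The difference of 0.77 ± 0.58 had an interval of -0.49 to 2.02, and without wild-type GFP- replicate 2, the array at 383.7, it was 0.29. Nras GFP- cells read 1942.9, 638.6 and 972.8, and Nras GFPhigh cells 1044.2, 1058.3 and 1224.6. On this probe set the log2 SD was 0.84 and 0.81 in wild-type and Nras GFP- cells and 0.18 and 0.13 in the GFPhigh groups. The label difference in Nras cells was 0.055 ± 0.58, the genotype differences were 0.51 ± 0.58 in GFP- and -0.20 ± 0.58 in GFPhigh cells, and the first of these 3 turned negative after median centring. With 1 array left out, the genotype difference in GFP- cells ran from 0.027 (no wild-type replicate 2) to 0.88 (no Nras replicate 2).

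A second Ccnd3 probe set, 1438805_at, ran from 266.9 to 1887.4 and placed the wild-type label difference at -0.29 ± 0.85, opposite in sign to the main one and within its error. Its spread was also the other way round, with log2 SDs of 0.60 and 0.90 in GFP- and 1.21 and 1.43 in GFPhigh cells. The third, 1444323_at, read 3.2 to 80 and was below the array median on all 12 arrays, so it was not tested. No Ccnd3 comparison reached an unadjusted p under 0.05 on either tested probe set.

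**Figure D2:**
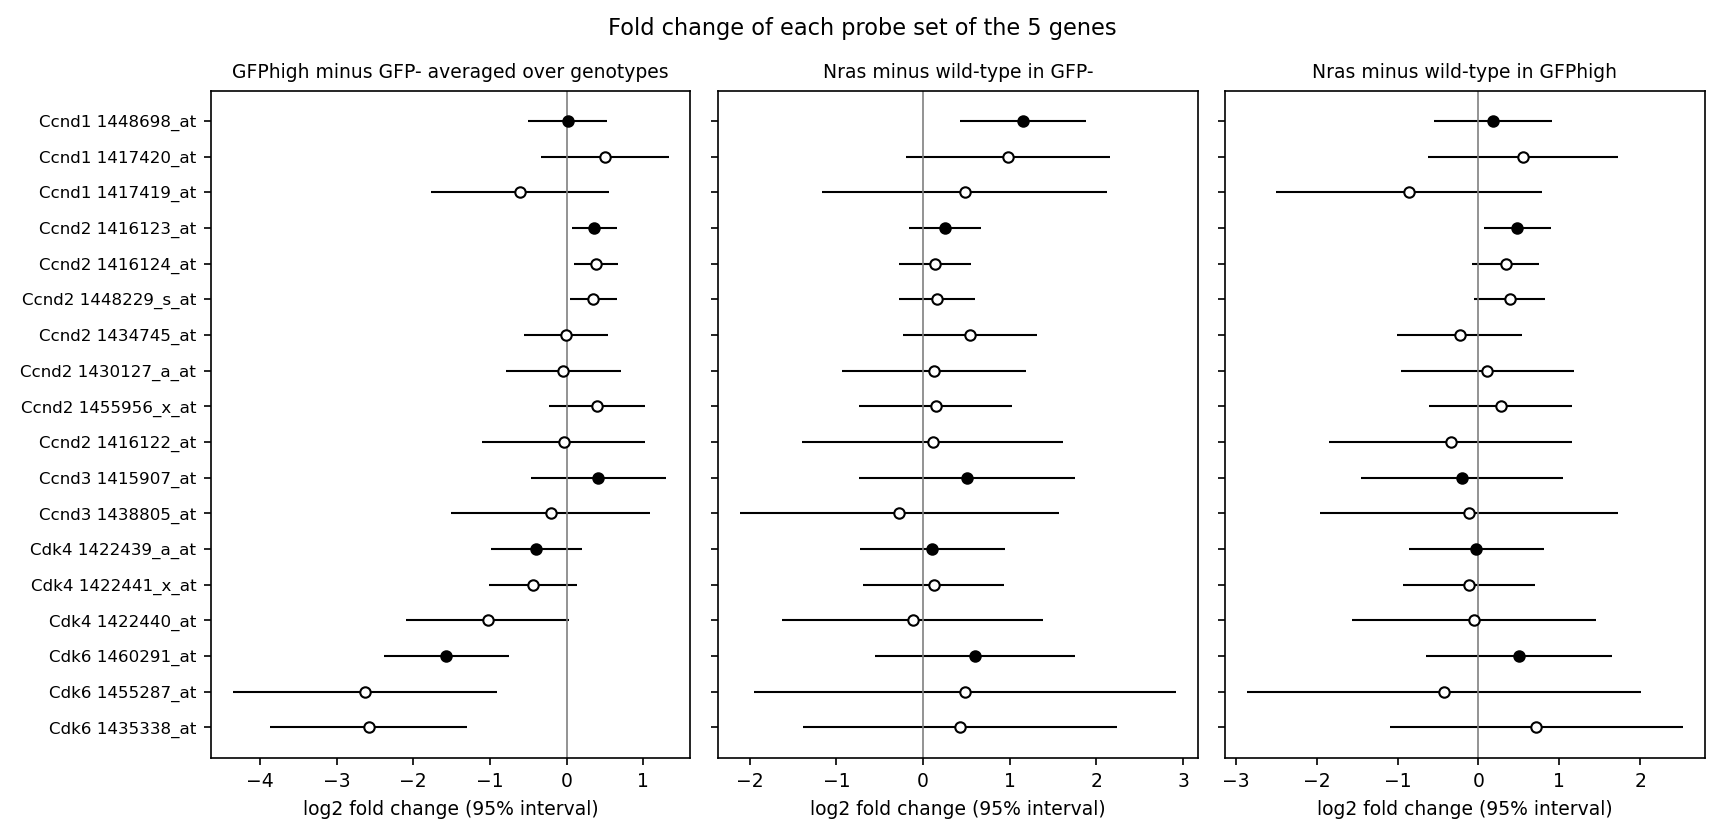
Log2 fold change with its 95% interval from limma for the 18 tested probe sets of the 5 genes, in 3 comparisons with separate horizontal axes, with filled points for the main probe set of each gene. The 3 Cdk6 probe sets lie from -2.63 to -1.57 for GFPhigh minus GFP-, whereas the 3 Ccnd1 probe sets lie on both sides of 0 there.

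Cdk4 encodes a kinase partner of the D-type cyclins. Its main probe set, 1422439_a_at, read 2464.4, 2369.4 and 2066.7 in wild-type GFP- cells and 2484.5, 1812 and 1349.3 in wild-type GFPhigh cells. Nras GFP- cells read 1870.5, 3878.5 and 2080.6, and Nras GFPhigh cells 2123.7, 1422.3 and 1906.3. All 4 groups overlapped. GFPhigh minus GFP- cells was -0.40 ± 0.28 on average (interval of -0.9995 to 0.21, adjusted p of 0.706). Without Nras GFP- replicate 2, the array at 3878.5, this was -0.23, and the difference in Nras cells went from -0.46 to -0.14. In wild-type cells it was -0.33, and -0.11 without GFPhigh replicate 3. The genotypes differed by 0.041 ± 0.28 averaged over populations.

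The suffix of 1422439_a_at and of 1422441_x_at marks probe sets that can match more than 1 transcript, and in the fit of all probe sets these gave -0.40 ± 0.27 and -0.43 ± 0.27. The dimmer 1422440_at, which has no such suffix, gave -1.03 ± 0.49 (unadjusted p of 0.0567). It read 716.3, 506.9 and 566 in wild-type GFP- against 222, 271.6 and 375 in wild-type GFPhigh cells, without overlap. In Nras cells it read 572.9, 533 and 523.5 against 533.7, 122 and 307.6, with overlap in 1 array. The size of the Cdk4 difference thus depended on the probe set. Its sign along the label did not, in the 26 alternatives run, some of which could not change the value.

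Cdk6 encodes the other kinase partner. Its main probe set, 1460291_at, read 2323.5, 2316.8 and 2960.8 in wild-type GFP- cells and 679.7, 649.2 and 1537 in wild-type GFPhigh cells. Nras GFP- cells read 2770.7, 4694.2 and 4265.2, and Nras GFPhigh cells 1969.1, 540.8 and 1808.2. Every GFPhigh array was below every GFP- array, across genotypes as well as within them. Across all genes, 6 against 6 arrays of this comparison did not overlap at 0.571%, and at 0.339% with GFPhigh lower.

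The Cdk6 signal was 2.86-fold lower in GFPhigh cells of wild-type mice (-1.52 ± 0.54, unadjusted p of 0.0149, adjusted p of 0.9997) and 3.07-fold lower in those of Nras mice (-1.62 ± 0.54, unadjusted p of 0.0105, adjusted p of 0.295). Without Nras GFPhigh replicate 2 the difference in Nras mice was -1.02. The averaged difference of -1.57 ± 0.38 had an interval of -2.39 to -0.74, an unadjusted p of 0.00127 and an adjusted p of 0.301 in limma. The interaction was -0.098 ± 0.76 with an interval of -1.75 to 1.55, which holds differences between the genotypes of either sign. Same-numbered pairs were lower in GFPhigh in 6 of 6 cases, with differences of -3.12 to -0.49.

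The other Cdk6 probe sets had wider gaps. On 1435338_at, wild-type cells read 3396.8, 2866.6 and 2921.3 in GFP- and 685.1, 107.4 and 1331.9 in GFPhigh. Nras cells read 4102.4, 3307.8 and 5084.5 in GFP- and 1186.6, 247.1 and 1480.2 in GFPhigh, for an average of -2.58 ± 0.59 (unadjusted p of 7.6e-04, adjusted p of 0.324 over 23128 probe sets). On 1455287_at the 6 GFP- arrays ran from 3243.8 to 6344.1 and the 6 GFPhigh arrays from 50.7 to 2473.2, for an average of -2.63 ± 0.80. The lowest array was wild-type GFPhigh replicate 2 on 1435338_at, Nras GFPhigh replicate 1 on 1455287_at and Nras GFPhigh replicate 2 on 1460291_at, which are all low-weight arrays.

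Without the low-weight arrays, which left replicate 3 alone in Nras GFPhigh, the averaged Cdk6 difference was -1.30. Over all 26 alternatives it lay between -2.26 and -1.27 with adjusted p of 0.118 to 0.673. In wild-type cells the granulocyte sums were 957.4, 2643.5 and 12500.9 in GFPhigh and 2505.2, 11515.5 and 13229.2 in GFP-, which overlap. In Nras cells they were 6017.3, 42953.5 and 57326.8 in GFPhigh and 4292.4, 4551.1 and 5070.8 in GFP-, without overlap. The part of the granulocyte transcripts in the Cdk6 difference was not tested. Between the genotypes Cdk6 was 0.60 ± 0.54 higher in Nras GFP- and 0.50 ± 0.54 higher in Nras GFPhigh cells, both with overlap. Leaving out any 1 GFPhigh array moved the GFPhigh value by over 1.5 times, from 0.17 without Nras replicate 1 to 1.10 without Nras replicate 2. The average over populations was 0.55 ± 0.38 with an adjusted p of 0.747 (0.85 without Nras GFPhigh replicate 2), and groups split by genotype did not overlap at 0.372% of all genes and for no member.

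Mki67, whose product marks cycling cells, did not follow Cdk6 on every array. It read 3629.1 to 7995.7 in the 6 GFP- arrays and 51.6 to 10164.9 in the 6 GFPhigh arrays. Its lowest value was in wild-type GFPhigh replicate 2, where Cdk6 read 649.2, and its highest in Nras GFPhigh replicate 2, where Cdk6 read 540.8. Both are low-weight arrays, and the latter had a granulocyte sum of 57326.8. Same-numbered Mki67 differences, GFPhigh minus GFP-, were -0.34, -6.20 and -1.09 in wild-type and -0.43, 1.49 and -1.68 in Nras cells. The averaged Mki67 difference was -1.38 ± 0.84 with an adjusted p of 0.666.

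**Figure D3:**
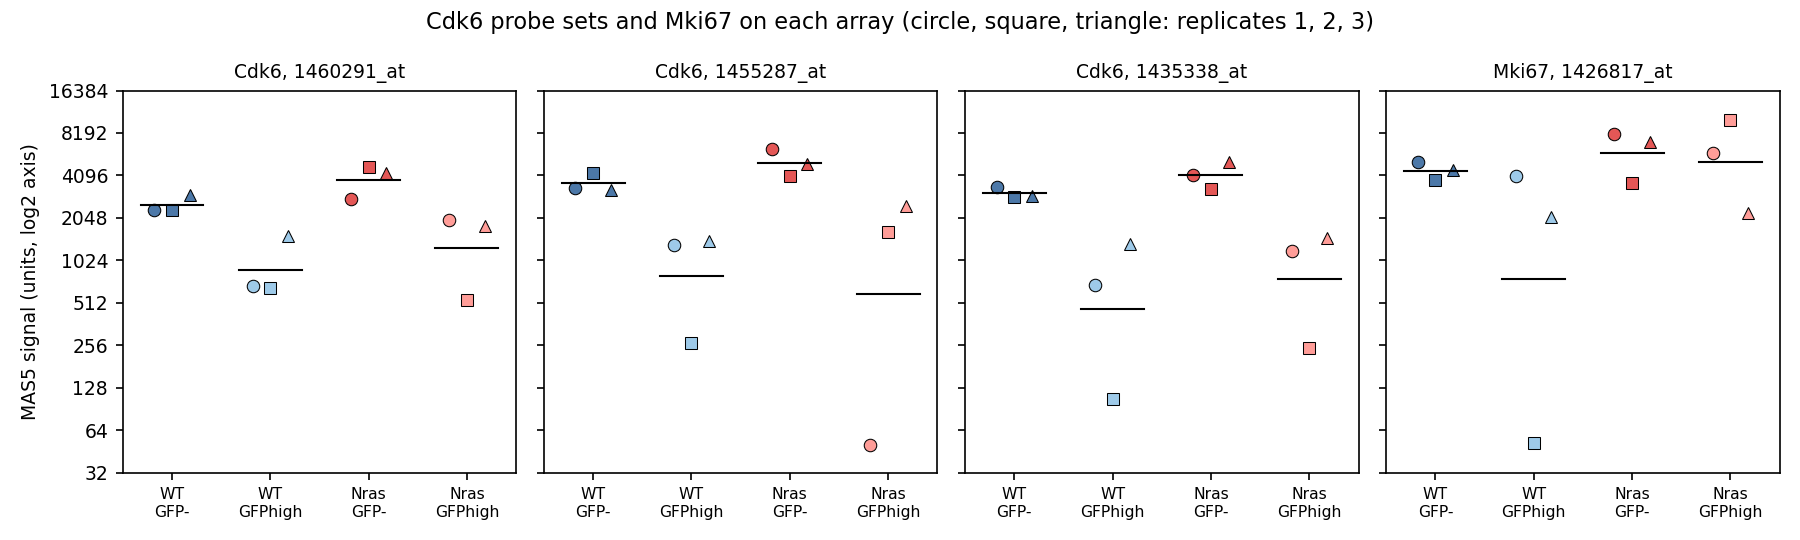
MAS5 signal of the 3 Cdk6 probe sets and of Mki67 on each of the 12 arrays, on a shared log2 axis that does not start at 0, with symbols for replicates 1 to 3 and a bar for the mean of the log2 values. The GFPhigh arrays of both genotypes lie below all GFP- arrays on the 3 Cdk6 panels, and Mki67 reaches from 51.6 to 10164.9 in GFPhigh cells.

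The promoters of the kinase genes are shown because Cdk4 and Cdk6 are compared as a ratio within arrays. RefSeq promoter windows on GRCm38.p6, from 250 bases before to 50 after the annotated start, were matched by symbol for 3 of the 5 genes, namely Ccnd3, Cdk4 and Cdk6. Capitals mark CACGTG, the E-box bound by MYC and MAX. The Cdk4 window is chr10:127063285-127063584 and the Cdk6 window chr5:3343643-3343942, both on the plus strand.
Cdk4: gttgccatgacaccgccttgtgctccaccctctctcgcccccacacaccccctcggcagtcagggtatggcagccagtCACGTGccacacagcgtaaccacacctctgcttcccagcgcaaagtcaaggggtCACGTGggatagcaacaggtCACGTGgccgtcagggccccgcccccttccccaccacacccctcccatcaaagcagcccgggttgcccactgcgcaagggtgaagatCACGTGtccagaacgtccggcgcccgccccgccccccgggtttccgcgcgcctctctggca
Cdk6: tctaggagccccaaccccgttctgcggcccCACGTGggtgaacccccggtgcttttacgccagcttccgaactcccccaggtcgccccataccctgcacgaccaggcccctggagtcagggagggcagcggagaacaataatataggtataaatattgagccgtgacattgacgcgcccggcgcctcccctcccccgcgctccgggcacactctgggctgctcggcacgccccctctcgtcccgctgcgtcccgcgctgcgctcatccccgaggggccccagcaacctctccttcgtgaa
CACGTG, which reads the same on both strands, occurs 4 times in the Cdk4 window, beginning 172, 118, 98 and 11 bases upstream of the start. It occurs once in the Cdk6 window, 220 bases upstream, and in neither of the 2 windows of Ccnd3. At least 1 match is held by 7.2% of the 32851 promoters of this length and 4 or more by 0.024%.

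Other motifs were searched on both strands in the same windows. The GC box GGGCGG has 3 matches in the Cdk4 window, of which 2 overlap each other, 2 in each Ccnd3 window and none in the Cdk6 window, and 35.7% of all promoters hold it. TATAAA has 1 match, in the Cdk6 window 103 bases upstream, and is held by 13.6%. No window of these genes holds TTCNNNGAA (8.3% of promoters) or the E2F letters TTTCCCGC, TTTGGCGC, TTTCGCGC or TTTGCCGC (2.3% for the 4 together). Matches of different motifs did not overlap. The array data do not bear on binding at any of these letters.

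A ratio of 2 genes within an array does not change when that array is rescaled, so 3 such ratios were compared between groups in 6 exact two-sided permutation tests, with the labels permuted within genotype or population and 0.005 as the smallest p possible. Only differences between groups are meaningful here, since probe sets differ in brightness. The log2 ratio of Cdk6 to Cdk4 was -0.085, -0.032 and 0.52 in wild-type GFP- and -1.87, -1.48 and 0.19 in wild-type GFPhigh cells. It was 0.57, 0.28 and 1.04 in Nras GFP- and -0.11, -1.40 and -0.076 in Nras GFPhigh cells. Replicate 3 of wild-type GFPhigh was above 2 of the 3 wild-type GFP- arrays, and the Nras groups did not overlap.

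The Cdk6 to Cdk4 log2 ratio differed by -1.17 between GFPhigh and GFP- cells, averaged over genotypes (exact permutation p of 0.015, Benjamini-Hochberg adjusted p of 0.09 over the 6 tests). The adjusted p was under 0.05 when log2 signals were averaged over the probe sets of a gene (-1.64, adjusted p of 0.03) and without wild-type GFPhigh replicate 3 (-1.48, adjusted p of 0.03). With the replicate block the permutation p was 0.031, the smallest possible there, and the adjusted p was 0.19. Without the low-weight arrays the difference was -0.85. No p is given for that value, since replicate 3 alone was left in Nras GFPhigh. With 1422440_at as the Cdk4 probe set the difference was -0.54 (adjusted p of 0.12). The choice of Cdk4 probe set thus moved the ratio by more than 1.5 times.

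The Ccnd1 to Ccnd2 ratio was -1.05, -0.97 and -1.01 in Nras GFP- cells, a tight group above all 9 other arrays, which ran from -2.27 to -1.36. Averaged over populations the genotype difference in this ratio was 0.30 (exact permutation p of 0.29, adjusted p of 0.29), and averaged over genotypes the label difference was -0.35 (p of 0.195, adjusted p of 0.288). The Ccnd1 to Ccnd3 ratio differed by 0.52 between genotypes (p of 0.14) and by -0.40 along the label (p of 0.24), each with an adjusted p of 0.288. The averages were the differences tested, and the single group of Nras GFP- cells was not tested on its own.

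**Figure D4:**
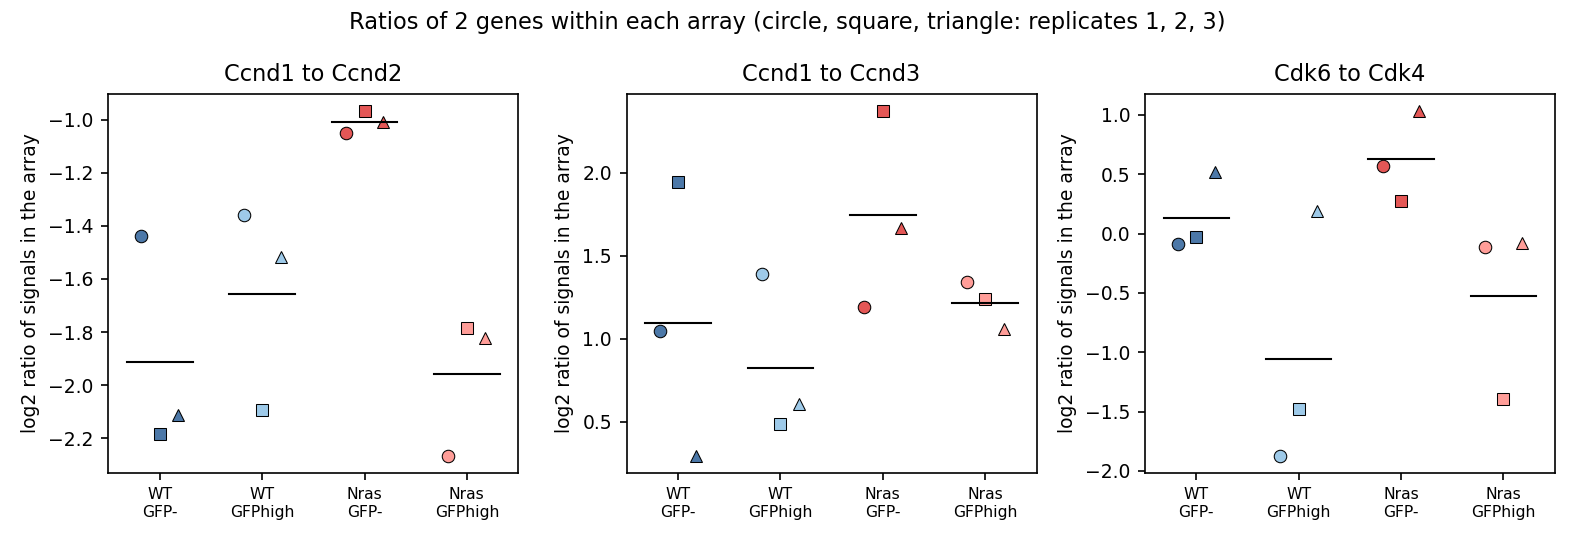
Log2 ratio of the signals of 2 genes within each of the 12 arrays, with 1 panel per ratio, separate vertical axes that need not hold 0, symbols for replicates 1 to 3 and a bar for the group mean. The Ccnd1 to Ccnd2 ratio lies from -1.05 to -0.97 in Nras GFP- cells, above the other 9 arrays, and the Cdk6 to Cdk4 ratio is lowest in wild-type GFPhigh replicate 1, at -1.87.

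The genes around these kinases were described from 6 lists with 68 entries, of which 62 were tested. In GFPhigh against GFP- averaged over genotypes, none of the 62 had an adjusted p under 0.05. E2F target genes of replication, which act downstream of CDK4 and CDK6, lay mostly on the same side as Cdk6. Of 17 tested, 13 were below 0 with a median of -0.92, against a median of 0.018 and 49% below 0 over all genes. At an unadjusted p under 0.05, 11 of the 17 were lower and none higher, against 4.51% of all genes lower. In Nras cells alone 9 of the 17 were lower, against 5.97% of all genes. In wild-type cells alone 2 were lower, Mcm5 and Tk1, against 139 lower among all 12083 genes. Of the same unadjusted calls over all genes, 49.2% were higher with the deposited scaling, 25.6% after median centring and 39% after quantile normalization.

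Mcm5, a subunit of the replicative helicase, read 3346 to 5848.6 in the 6 GFP- arrays and 1239.2 to 3072 in the 6 GFPhigh arrays, without overlap (0.339% of all genes with GFPhigh lower). Its difference was -1.05 ± 0.25 (adjusted p of 0.296). Uhrf1, which keeps DNA methylation through replication, differed by -2.65 ± 0.78 (adjusted p of 0.416), and Rrm1, a subunit of ribonucleotide reductase, by -0.77 ± 0.22 (adjusted p of 0.416). Pcna, the sliding clamp of DNA polymerase, differed by 0.025 ± 0.097 along the label and was higher in Nras cells, at 7694.1 to 8707.5 against 5632.2 to 7405.9 in wild-type cells. That difference of 0.31 ± 0.097 was without overlap (0.372% of all genes) and had an adjusted p of 0.579. The Nras against wild-type difference of GFPhigh cells alone, 0.32, had the other sign in 1 of 27 alternatives.

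The inhibitors of these kinases were 7 genes, of which 5 were tested and 2, Cdkn2a and Cdkn2b, were too dim. Cdkn1c, which encodes the CIP/KIP inhibitor p57, was higher in GFPhigh cells without overlap (0.571% of all genes in either direction). It read 278.4, 538 and 230.5 in wild-type GFP- and 1520.5, 2693.8 and 1012.4 in wild-type GFPhigh cells. In Nras cells it read 202.7, 484.3 and 799.4 in GFP- and 876.6, 1502.5 and 2102.7 in GFPhigh. The averaged difference was 2.01 ± 0.49 with an unadjusted p of 0.00127 and an adjusted p of 0.301. Cdkn2c, an INK4 inhibitor, differed by -1.49 ± 0.78 and Cdkn1a, which encodes p21, by 1.81 ± 0.997, with adjusted p of 0.611 and 0.629. Along the averaged label 3 of the 5 were above and 2 below 0, with a median of 0.95. Cdkn2d, another INK4 inhibitor, differed by 2.50 ± 1.30 along the label in Nras cells (adjusted p of 0.462). Its mean signal in wild-type cells was 386.7 in GFP- and 261.3 in GFPhigh. Between Nras and wild-type GFP- cells it differed by -3.27 ± 1.30, with overlap (adjusted p of 0.983). It was dim in Nras GFP- cells, with a mean signal of 120.5 and an SD of 148.6.

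RB pocket proteins and E2F factors numbered 13, all tested. Along the averaged label 11 were below and 2 above 0 with a median of -0.47, against 49% below 0 over all genes. E2f8, a repressive E2F, differed by -2.44 ± 0.81 (adjusted p of 0.454) and Tfdp1, a DNA-binding partner of E2Fs, by -0.75 ± 0.29 (adjusted p of 0.525). Rb1, the retinoblastoma gene itself, differed by -1.11 ± 0.50 on average. Wild-type cells read 390.5, 730.5 and 629.5 in GFP- and 187.2, 59.5 and 194.1 in GFPhigh. Nras cells read 293.9 to 396.8 and 218.5 to 431.7. The wild-type groups did not overlap (11.1% of all genes) and the Nras groups did. In 1 of 26 alternatives the wild-type Rb1 difference had the other sign. The pocket protein gene Rbl2 went the other way in wild-type cells. It was 0.92 ± 0.42 higher in GFPhigh without overlap (11.1% of all genes), with an adjusted p of 0.9997 in limma.

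The 8 genes for cyclins E and A, CDK2 and the kinase complex that activates CDKs were all below 0 along the averaged label. Their median was -0.56, and 49% of all genes were below 0. Of the 8, 6 were below 0 in wild-type cells alone and 7 in Nras cells alone. Ccnh, the cyclin of that complex, differed by -0.55 ± 0.23, Cdk2 by -1.13 ± 0.57 and Ccne2 (cyclin E2) by -1.87 ± 1.04, with adjusted p of 0.550, 0.602 and 0.632. Ccne2 was dim, with a mean signal of 40.7 (SD 51.6) in wild-type GFPhigh cells. The Ccnh difference had the other sign in 1 of 26 alternatives. Of the 6 tested genes for the turnover of D-type cyclins and the folding of CDK4 and CDK6, 3 were above and 3 below 0. Cdc37, the chaperone partner that loads CDK4 and CDK6, differed by -0.73 ± 0.41 along the label and by -0.88 ± 0.41 between genotypes, with adjusted p of 0.637 and 0.647.

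Among 13 tested regulators of D-type cyclin transcription, 8 were above and 5 below 0 along the label, with a median of 0.33. Myc, which encodes the E-box factor MYC, read 2470.3 to 4438.5 in GFP- and 1876.3 to 2591.2 in GFPhigh arrays, with overlap, and differed by -0.62 ± 0.21 (adjusted p of 0.464). Egr1, an early-response factor, was 0.59 ± 0.18 higher in GFPhigh (adjusted p of 0.439) and 0.47 ± 0.18 higher in Nras cells (adjusted p of 0.597). Ets1 differed by 2.26 ± 0.90 along the label and by -2.56 ± 0.90 between Nras and wild-type cells (adjusted p of 0.529 and 0.594). In Nras against wild-type GFP- cells, where Ccnd1 was higher, this list had 9 of 13 above 0 with a median of 0.26, against -0.17 over all genes. Its only members at an unadjusted p under 0.05 there were lower in Nras cells, with differences of -3.16 ± 1.28 for Ets1 and -2.31 ± 1.02 for Ets2, each with an adjusted p of 0.983. Mean signals in Nras GFP- cells were low, at 75.3 (SD 76.7) for Ets1 and 142.5 (SD 189.1) for Ets2. The median of the list was -0.043 without the low-weight arrays, with 7 of 13 below 0, and 0.87 after median centring, where that of all genes was 0.43.

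**Figure D5:**
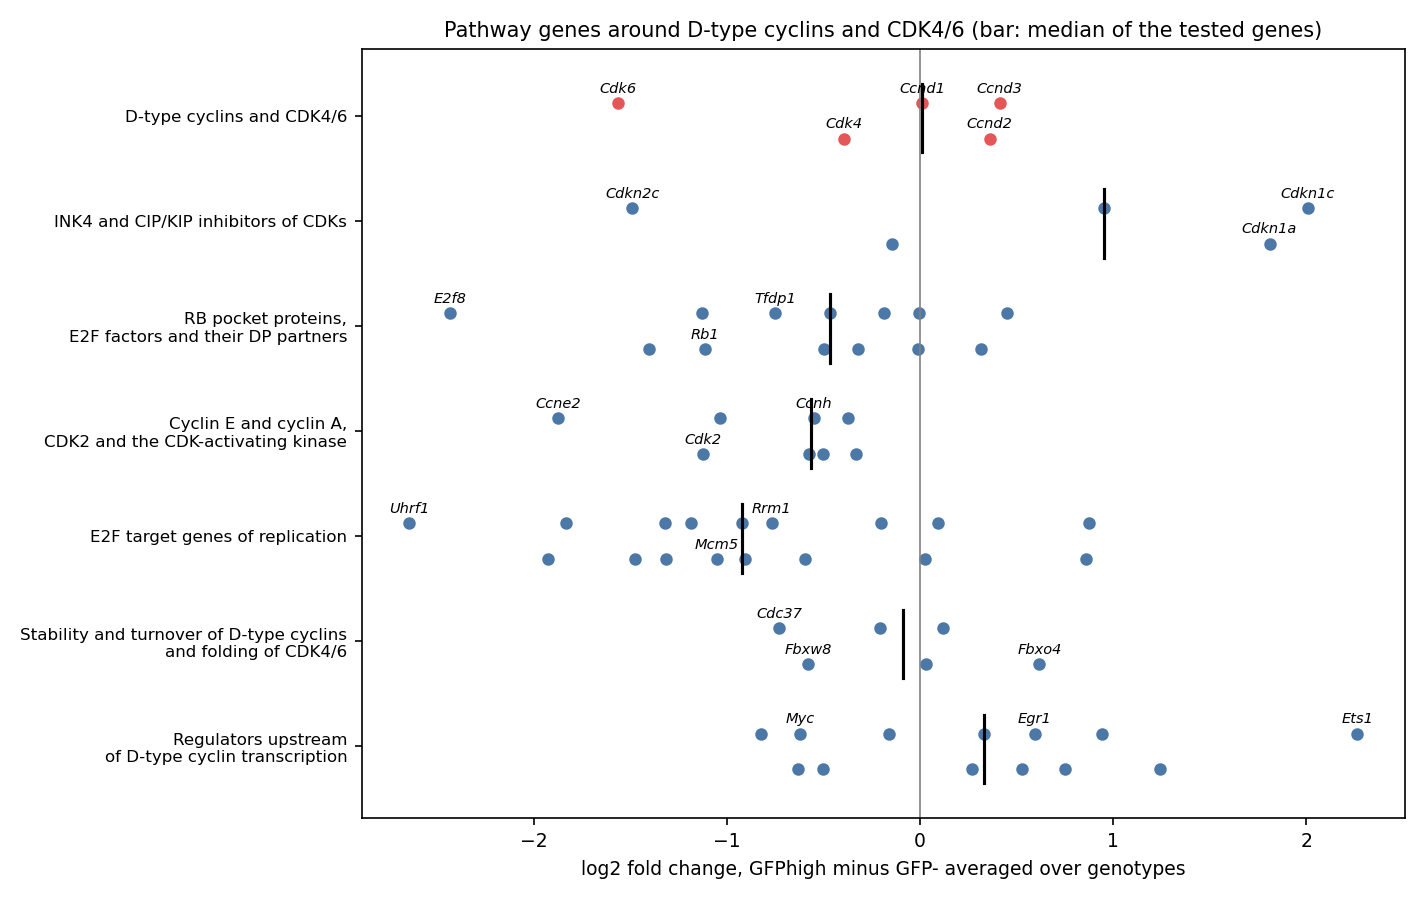
Log2 fold change for GFPhigh minus GFP- averaged over genotypes of the 5 genes (top row) and of the 62 tested genes in the 6 pathway lists, 1 point per gene on a linear axis, with a bar for the median of each row and names for the genes given in the text. The E2F target genes have a median of -0.92, and Cdk6 lies at -1.57.

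The members did not move as one across the arrays. Over 12 arrays, which share groups and scaling, Pearson correlations of log2 signal between members ran from -0.54 (Ccnd3 with Cdk4) to 0.51 (Cdk4 with Cdk6), and Ccnd1 with Ccnd2 was at 0.43. Among the 12082 other tested genes, Cdk6 was most like Xrcc3 (0.96), Ints7 (0.92) and Ezh2 (0.90), and least like Cryba2 (-0.88). Ccnd1 was most like Usp47 (0.90), Scyl2 (0.87) and Spata5 (0.83), and least like Fbxo22 (-0.88). Ccnd2 was most like Tsc22d1 (0.94), Stk24 (0.94) and Zfand5 (0.92), and least like Rubcn (-0.94). Ccnd3 was most like Csgalnact1 (0.90), Azi2 (0.88) and Il27ra (0.87), and least like Ints3 (-0.92). Cdk4 was most like Ccdc86 (0.91), Eif2b5 (0.86) and Ctc1 (0.86), and least like Hsbp1 (-0.89). The extremes of 12082 correlations over 12 arrays are given as a description only.

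Across the 4 groups, each gene had its own order of levels. Cdk6 had geometric mean signals of 3814 in Nras GFP-, 2517 in wild-type GFP-, 1244 in Nras GFPhigh and 879 in wild-type GFPhigh cells, and the neighbours in this order overlapped except wild-type GFP- with Nras GFPhigh. Ccnd1 ran from 3566 in Nras GFP- through 2565 in Nras GFPhigh and 2260 in wild-type GFPhigh to 1599 in wild-type GFP- cells, and only the first step was without overlap. Ccnd2 was at 9962 in Nras GFPhigh, 7172 in Nras GFP-, 7133 in wild-type GFPhigh and 6021 in wild-type GFP- cells, with overlap at each step. Ccnd3 (748 to 1274) and Cdk4 (1792 to 2471) had overlap at each step of their orders.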

How the data were processed

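Total RNA of flow-sorted HSCs was labelled as biotinylated cRNA and hybridised to 12 Affymetrix arrays. The authors deposited intensity values from MAS5, per the submitters' processing notes, whose version is not given there, with arrays scaled to an equal trimmed mean of 500. Signals were taken to log2 after 3 values of 0 were set to 0.1. Of 45101 probe sets, 64 controls, 932 with several gene symbols and 9160 with none were left out. Each gene took its brightest probe set. Arrays give no counts, so their number limits the precision.

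One limma model with a mean per group and an intensity trend was fitted to 12083 genes over all 12 samples, with Benjamini-Hochberg adjusted p under 0.05 as the threshold and 7 comparisons. SE and 95% intervals are limma's. Ratios within arrays were tested by exact permutation. All probe sets of the members were read from a fit of 23128 probe sets. The replicates are called biological in the labels. The members and lists were chosen with earlier results of these data known. Named genes are the 5 members, list genes past the threshold, up to 3 list genes of smallest unadjusted p in the 4 comparisons of 2 groups and the 2 averaged ones, of which some are given, the 3 most and 1 least correlated gene of each member, Nras and Mki67. Gem is named as the only called gene.

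Alternatives were a filter at the 75th percentile, no filter, centring on array medians, quantile normalization, pseudocounts of 15.5 and 100, the mean over probe sets, no shared probe sets, array weights, no low-weight arrays (weight under 0.6), a replicate block, only replicates 1 and 2, only the groups compared, no trend, a threshold of 0.1 and each array left out. The steps were tested on simulated data. Motifs were searched in RefSeq promoters. Statistics used limma 3.58.1 with statmod 1.5.0 in R 4.3.3. Figures were drawn with matplotlib 3.10.9, and sequences handled with pandas 2.3.3 and numpy 2.4.6, under Python 3.11.15.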

Additional observations from a re-analysis of the deposited data

How the results depend on the processing

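No fold change of a member passed the threshold in any alternative run. The signs of Cdk6 and Cdk4 along the label and of Ccnd1 between genotypes in GFP- cells were the same in all of them. Some alternatives could not turn a sign, since a filter, the threshold, the trend or the replicate block leaves a fold change as it was. Of the members' fold changes under alternatives, 883 kept their sign and 47 turned it, none of them called in the main model, and the cause was not tested. The labels do not say what a replicate number shares, and the pairing was not used in the main model: same-numbered deviations correlated at -0.044 to 0.15, over 0.1 in 3 of 18 pairs, against 0 of 36 pairs with different numbers. As a hint from the data, 11 of 12 samples correlated best with their own number, and replicate 3 of each group stood apart from replicates 1 and 2 in Xist and Eif2s3y. With the replicate block the Cdk6 label difference had an adjusted p of 0.324, and 0 genes were called in the averaged genotype comparison. All-gene medians along the label in Nras cells were 0.082, -0.41 and -0.069 with the deposited scaling, median centring and quantile normalization.

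Genes called for the averaged label (0 in the main model) numbered 1 with no filter, 2 with median centring, 4 and 6 with pseudocounts of 15.5 and 100, 4 with the mean over probe sets, 8 with array weights, 3 without the low-weight arrays, 1 with no trend, 5 at an adjusted p under 0.1 and 0 to 16 with 1 array left out. For the label in Nras cells (0) they were 3 with median centring, 4 without the low-weight arrays and 0 to 161 with 1 array left out, the last without Nras GFPhigh replicate 3, which also gave the 16. For the label in wild-type cells (0) array weights gave 4. For the averaged genotype (1) quantile normalization gave 2, leaving out 1 array gave 0 to 5, and median centring, no shared probe sets, no low-weight arrays, replicates 1 and 2 only and no trend gave 0. Leaving out 1 array gave 0 to 8 for genotype in GFP- cells, 0 to 17 in GFPhigh cells and 0 to 1 for the interaction.

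Signs turned as follows. Median centring gave -0.014 for Ccnd2 and -0.43 for Ccnd3 along the label in Nras cells, -0.41 for the Ccnd2 interaction and -0.16 for Ccnd1 along the averaged label. Quantile normalization gave 0.036 for Cdk4 between genotypes in GFPhigh cells and interactions of -0.040 for Ccnd2, 0.0037 for Cdk4 and 0.0018 for Cdk6. The mean over probe sets gave -0.043 for Ccnd1 between genotypes in GFPhigh cells, -0.066 for the Ccnd2 interaction, -0.032 for Ccnd1 along the averaged label, and -0.0071 for Ccnd3 and -0.016 for Cdk4 in the averaged genotype. Without shared probe sets Cdk4 gave -0.12 between genotypes in GFP- cells, -0.090 averaged and 0.062 for the interaction. Array weights gave 0.031 for Cdk4 between genotypes in GFPhigh cells and -0.062 for Ccnd3 in the averaged genotype. Without the low-weight arrays the genotype difference was -0.059 for Ccnd1 and 0.058 for Cdk4 in GFPhigh cells, and -0.023 for Ccnd3 averaged. Replicates 1 and 2 alone gave -0.084 for Ccnd3 along the label in Nras cells, -0.093 for Ccnd1 along the averaged label and -0.066 for Cdk4 in the averaged genotype.

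With 1 array left out, Ccnd1 ran from -0.11 to 0.13 along the averaged label and from -0.053 to 0.43 between genotypes in GFPhigh cells. Ccnd3 ran from -0.31 to 0.49 along the label in Nras cells and from -0.089 to 0.34 in the averaged genotype. Cdk4 ran from -0.12 to 0.15 in the averaged genotype, -0.22 to 0.31 in GFP- cells, -0.24 to 0.20 in GFPhigh cells and -0.35 to 0.19 for the interaction, and the Cdk6 interaction from -0.43 to 0.50. The Cdk6 to Cdk4 ratio difference ran from -1.48 to -0.95, and was -1.64 with the mean over probe sets.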
